A study of Mus musculus with 16 samples.

Results

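The genes described here are 37 mouse genes of cholesterol and fatty acid synthesis and of sterol uptake and trafficking, chosen by name as genes under the control of the sterol regulatory element binding proteins (SREBPs). They were 37 of the 52636 gene identifiers in the count table, and all 37 were among the 12215 genes that passed the low-count filter. By role they were 6 genes of the mevalonate pathway (Acat2, Hmgcs1, Mvk, Pmvk, Mvd, Idi1), 2 prenyl chain synthases (Fdps, Ggps1), 12 genes from squalene to cholesterol (Fdft1, Sqle, Lss, Cyp51, Tm7sf2, Lbr, Msmo1, Nsdhl, Hsd17b7, Ebp, Sc5d, Dhcr7), 4 genes of SREBP control (Srebf1, Srebf2, Scap, Insig1), 8 of fatty acid synthesis and desaturation (Acly, Acaca, Fasn, Elovl6, Scd1, Scd2, Fads1, Fads2) and 5 of uptake, trafficking and storage (Stard4, Mylip, Npc1, Npc2, Soat1).

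RNA was sequenced from CRAFR26 mouse embryonic stem cells, a line whose construct turns on c-RAF, and through it MEK and ERK, when 4-hydroxytamoxifen (4OHT) is added. The question was how transcripts respond to ERK activity and whether they go back when it is blocked. There were 16 libraries in 4 groups of 4, and each group held 2 replicates of clone 4 and 2 of clone 8. All cells were grown in N2B27 medium with the GSK3 inhibitor CHIR99021 and LIF, and for 48 h before the experiment they had the FGF receptor inhibitor PD17 at 250 nM in place of the MEK inhibitor PD03. The 0h group had no 4OHT, the 2h and 4h groups had 250 nM 4OHT for 2 h and 4 h, and the rev group had 4 h of 4OHT and then a MEK inhibitor for 2 h. No vehicle control and no culture held for the same total time as rev without the MEK inhibitor was among the groups, so in rev the inhibitor and the added time cannot be told apart. Both clones carry the construct, and the labels do not say whether the replicates of a clone were separate cultures, so p-values measure the spread between these libraries, which may be technical.

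Cells make cholesterol from acetyl-CoA through mevalonate, farnesyl diphosphate, squalene and lanosterol. When sterols in the endoplasmic reticulum are low, SCAP carries SREBP to the Golgi, where it is cut to release a transcription factor that raises the genes of synthesis and uptake; when sterols are plentiful, INSIG1 holds the SCAP and SREBP complex back. The same factors drive fatty acid synthesis, and rapidly dividing cells such as embryonic stem cells need both products for their membranes.

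Promoter sequences in the RefSeq table (GRCm38.p6, windows of 300 bases ending 50 bases after the start site) were found for 29 of the 37 members. The letters TCACNCCAC, a form of the sterol element bound by SREBP, were searched on both strands. The CCAAT box was searched as those 5 letters, the GC box as GGGCGG and the E-box as the palindrome CACGTG, and in the 4 sequences printed no match overlaps another. The sterol letters were present in 1 of the 29 members, Hmgcs1, against 1.44% of all 27025 genes in the table. CCAAT stood in 24 of the 29 against 41.1% of all genes, GGGCGG in 24 against 38.2% and CACGTG in 5 (Hsd17b7, Sc5d, Dhcr7, Scap and Insig1) against 8.09%. A match of letters is a description and not a site. The 250 bases before the start site are printed, 5′ to 3′ on the gene's strand, with the searched letters in capitals: Hmgcs1 (chr13:119690101-119690350, plus strand) because it held the sterol letters, and Insig1 (chr5:28071162-28071411, plus strand), Msmo1 (chr8:64733579-64733828, minus strand) and Srebf2 (chr15:82147019-82147268, plus strand) because they were among the called members with a promoter in the table, a choice made after their values were seen.
Hmgcs1: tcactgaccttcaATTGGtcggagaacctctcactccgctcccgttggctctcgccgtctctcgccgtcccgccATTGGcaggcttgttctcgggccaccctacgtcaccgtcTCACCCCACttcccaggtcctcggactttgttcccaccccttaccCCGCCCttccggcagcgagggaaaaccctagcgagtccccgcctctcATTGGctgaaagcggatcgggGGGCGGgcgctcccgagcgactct
Insig1: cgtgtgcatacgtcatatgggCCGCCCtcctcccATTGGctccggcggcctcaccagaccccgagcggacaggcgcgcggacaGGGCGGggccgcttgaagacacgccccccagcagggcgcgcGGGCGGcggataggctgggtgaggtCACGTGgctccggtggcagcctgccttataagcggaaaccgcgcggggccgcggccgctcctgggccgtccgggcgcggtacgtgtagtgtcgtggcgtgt
Msmo1: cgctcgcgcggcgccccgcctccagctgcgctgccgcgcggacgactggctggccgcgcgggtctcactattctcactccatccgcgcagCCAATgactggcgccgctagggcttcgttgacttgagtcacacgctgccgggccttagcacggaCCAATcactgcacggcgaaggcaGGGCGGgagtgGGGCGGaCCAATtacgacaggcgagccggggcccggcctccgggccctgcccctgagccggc
Srebf2: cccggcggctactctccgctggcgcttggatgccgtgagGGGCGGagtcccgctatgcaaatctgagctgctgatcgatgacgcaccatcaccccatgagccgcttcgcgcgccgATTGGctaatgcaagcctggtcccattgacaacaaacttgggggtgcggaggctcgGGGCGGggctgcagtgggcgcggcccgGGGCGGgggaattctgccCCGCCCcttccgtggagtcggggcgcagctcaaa
The Hmgcs1 sequence holds the sterol letters as TCACCCCAC starting 137 bases before the start site. The Msmo1 sequence holds 3 CCAAT matches, at 160, 96 and 55 bases before the start, and 2 GC boxes. The Insig1 sequence holds 1 CCAAT match in the opposite orientation (ATTGG), 3 GC boxes and 1 E-box at 101 bases before the start. The Srebf2 sequence holds 1 ATTGG and 4 GC boxes, with none of the sterol or E-box letters, which says only that these letters are not in this window.

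Total counts per library ran from 2172651 to 12680303, and 8 gene models, mitochondrial rRNA among them, took 42.0% to 80.4% of them. The rev library of clone 8 replicate 2 stood apart, with 80.4% in these models and a TMM factor of 0.463, while the other 15 libraries had 42.0% to 65.9% and factors of 0.852 to 1.47. Levels are therefore given as CPM, counts brought to a common library size with factors from the trimmed mean of M values (TMM), and a count of 3 corresponds to 0.213 to 1.35 CPM, for counting error only. Member counts in a single library ran from 5 (Fdps) to 11031 (Scd2). ERK targets rose and fell with the labels, though not all were back at their 0h level in rev. Dusp6, an ERK phosphatase, stood at 0.597 to 1.60 CPM at 0h and 27.6 to 32.0 CPM at 2h. It reached 42.9 to 67.4 CPM at 4h and had 0.663 to 2.25 CPM in rev. All 6 listed targets gave a higher call in either induced group against 0h and a lower call in rev against 4h. Relative to 0h, rev had 3 of the 6 called higher and 2 lower. Of the 10 pluripotency markers all passed the filter, with a summed level of 1825 to 2611 CPM over the 16 libraries. In that list 5 were called higher and 1 lower at 2h, 5 higher and 3 lower at 4h, 3 higher and 4 lower in rev against 4h and 2 higher and 1 lower when rev was compared to 0h. Of the other lists, 1 of 7 primitive endoderm and 2 of 7 fibroblast markers passed, and Dcn and Postn were at 0 in every library. Markers of neural and mesodermal cells (5 of 6 tested) summed to 7.76 to 11.4 CPM at 0h, 10.9 to 19.3 at 2h, 20.5 to 30.1 at 4h and 12.6 to 17.4 in rev. The 2 tested fibroblast markers, Col1a1 and Thy1, summed to 2.44 to 3.85 CPM at 0h and 3.30 to 8.56 CPM in rev, and Col1a1 was called higher at 2h (1.57) and in rev against 0h (1.93). Genes of the pluripotency, the neural and mesodermal and the fibroblast lists thus moved with the groups, and their part in the results was not tested. The 1 tested primitive endoderm marker was called in no comparison between groups. In bulk RNA, fewer cells of a type and less RNA per cell cannot be told apart.

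Before induction the 5 members with the highest levels per kilobase were fatty acid genes. Acaca, an acetyl-CoA carboxylase, stood near the low end at 2.27 CPM per kilobase (38.8 CPM over an exon length of 17074 bases). Per kilobase of exon, the mean 0h level was 135.9 CPM for Scd2, a stearoyl-CoA desaturase, 63.3 for Acly, which makes cytosolic acetyl-CoA, and 55.5 for Fasn, the fatty acid synthase. Scd1 (38.0), Elovl6 (29.2) and Hmgcs1 (25.5 CPM per kilobase), the synthase that makes HMG-CoA, came next. The lowest were Fdps, farnesyl diphosphate synthase (1.26), and Soat1, which esterifies cholesterol for storage (0.766 CPM per kilobase). Such levels assume that the whole annotated exon length is transcribed.

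The responses of the members were small. Over the 5 comparisons between groups, no member changed by 2-fold, 33 of the 37 stayed below 0.5 in absolute log2 fold change (log2FC), and 20 were called in none (edgeR quasi-likelihood test, Benjamini-Hochberg adjusted p under 0.05 over all tested genes). The comparisons share libraries, so a gene called in several of them is not repeated evidence. Members with values for every library were those called with a log2FC of at least 0.4 in size and a mean of at least 5 CPM (Msmo1, Fdft1, Stard4 and Soat1); the others given in that detail (Insig1, Srebf2, Srebf1, Scap, Scd1, Fdps, Npc2 and Hmgcs1) were picked after their values were seen. Each call between groups was refitted under 10 other settings, and each clone call under the 7 of them that keep both clones and all groups in the model without a block. Of the 34 calls between groups, 9 were kept with scaling by library size alone, 13 with no clone covariate, and 5 under all 10 settings: Fdft1 in both rev comparisons and Msmo1, Npc2 and Stard4 in rev against 0h. Further settings that ended a call are given with the gene.

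**Figure D1:**
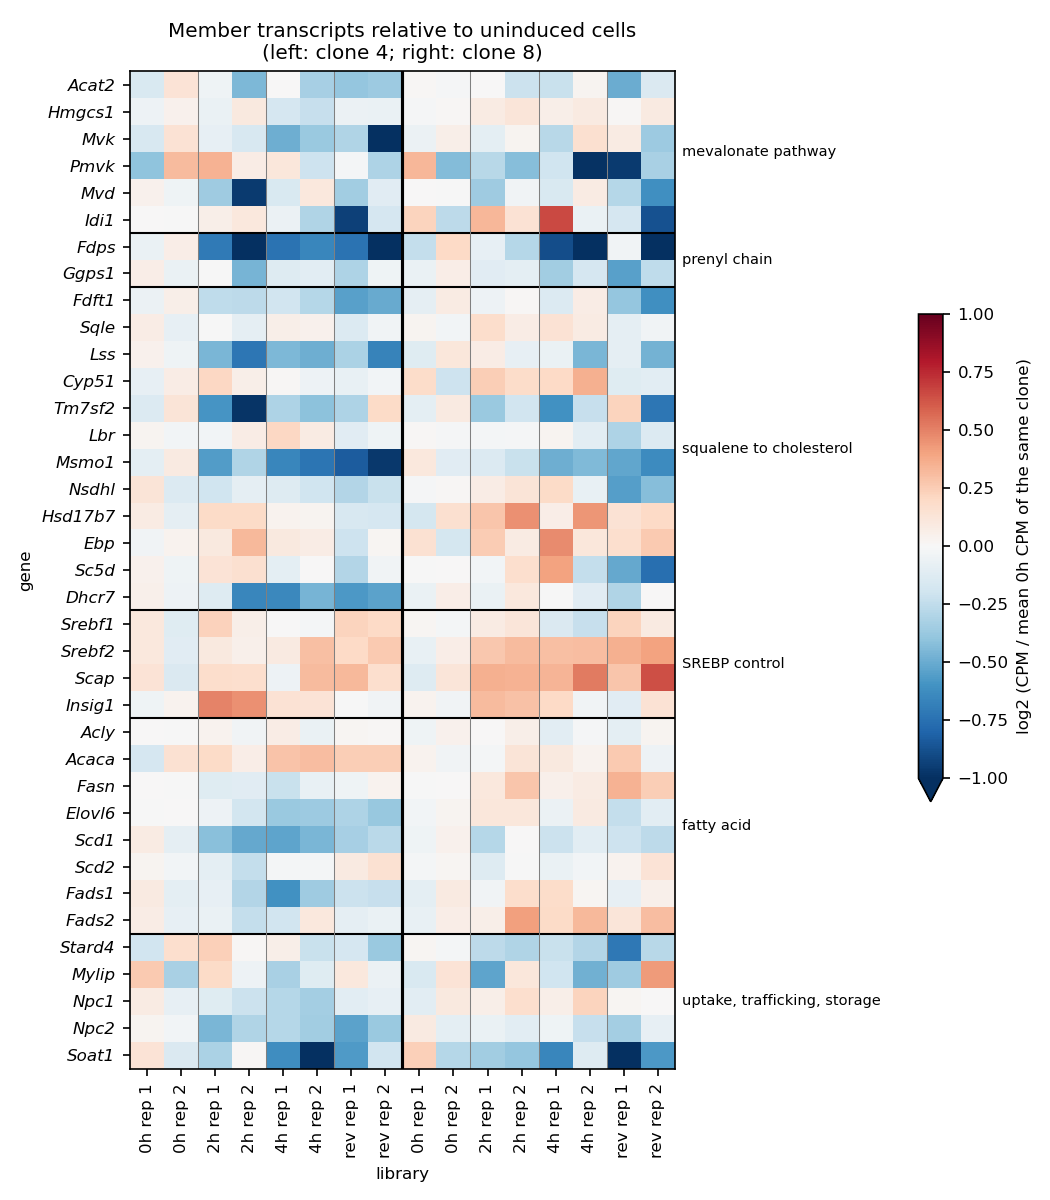
Log2 ratio of CPM in each library to the mean 0h CPM of the same clone (colour; values below -1 share the darkest blue), with the 37 members in rows by role and the 16 libraries in columns, clone 4 on the left and clone 8 on the right. Msmo1 is blue in every induced and rev library, Insig1 at 2h is red in both clones, and most members are pale. Srebf2 at 2h is red in clone 8, and in clone 4 it is no higher than the redder of the 2 0h libraries.

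In 2h against 0h, 5 of the 37 members (13.5%) were called, with a background of 21.4% of all tested genes (11.5% higher, 9.81% lower). Insig1 and Srebf2 rose, and Msmo1, Npc2 and Scd1 fell. The median log2FC of the members was -0.01, and that of all genes -0.02. None of the 6 mevalonate pathway genes and 1 of the 12 genes from squalene to cholesterol passed the test.

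In 4h against 0h, 10 members (27.0%) were called, with a background of 34.3% (17.4% higher, 16.9% lower). Srebf2 and Scap rose, and 8 members fell: Fdps, Msmo1, Lss, Dhcr7, Elovl6, Scd1, Npc2 and Soat1. The median log2FC was -0.09 for the members and -0.02 for all genes. Without the 0h library of clone 4 replicate 2, the counts became 1 higher and 1 lower at 2h and 1 higher and 4 lower at 4h. In that refit 17.6% of all genes were called at 2h and 29.5% at 4h. Without the 4h library of clone 4 replicate 2 the counts were 1 higher and 5 lower at 4h, with 29.5% of all genes called.

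From 2h to 4h, 2 members (5.41%) were called, Insig1 and Msmo1, both lower, with a background of 7.78% (4.04% higher, 3.74% lower). In rev against 4h, 4 members (10.8%) were called, with a background of 16.5% (7.99% higher, 8.51% lower): Srebf1 and Fasn rose, and Fdft1 and Lbr fell. In these 4 comparisons the share of members called was below that of all genes, a difference that was not tested.

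In rev against 0h, 13 members (35.1%) were called, with a background of 22.6% (12.7% higher, 9.85% lower). Srebf2 and Scap rose, and Acat2, Fdps, Fdft1, Lss, Msmo1, Dhcr7, Elovl6, Scd1, Stard4, Npc2 and Soat1 fell. The median log2FC was -0.15 for the members and -0.01 for all genes, and 28 of the 37 values were negative against 50.9% of all genes. All 6 mevalonate pathway genes had negative values (median -0.34), 1 of them (Acat2) called, while the 8 fatty acid genes had a median of 0.03. Without the rev library of clone 8 replicate 1, 7 members were lower, with 17.2% of all genes called in either direction. Left-out libraries moved the number of higher members between 1 (without the 0h libraries of clone 4 replicate 2 or clone 8 replicate 1, or the rev libraries of clone 4 replicate 1 or clone 8 replicate 2) and 4 (without 0h clone 4 replicate 1). Of all genes 18.0%, 18.5%, 18.1%, 19.4% and 22.8% were called in these refits, in that order and in either direction.

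The share of counts in the 8 most abundant models was 42.0% to 62.4% at 4h and 55.1% to 65.9% in rev apart from the library of clone 8 replicate 2 (80.4%). Without that library 1 member was higher and 2 lower in rev against 4h, and 1 higher and 8 lower for rev against 0h. Of all genes 15.5% and 19.4% were called in that refit, in that order. With that share as a covariate, 1 member was higher and 1 lower in rev against 4h. Scaling by library size alone put the median of all genes at -0.41 (log2) in rev against 4h and at -0.32 in rev against 0h, and of all genes 3.09% and 10.3% of the calls were then higher, against 48.4% and 56.4% with TMM. Under that scaling 0 members were higher and 8 lower in rev against 4h, and 0 higher and 7 lower in rev against 0h, with 14.6% and 8.19% of all genes called. Srebf1 (-0.15) and Fasn (-0.24) in rev against 4h and Srebf2 (-0.02) in rev against 0h then turned negative, and relative to the shifted median they were at 0.26, 0.16 and 0.30.

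**Figure D2:**
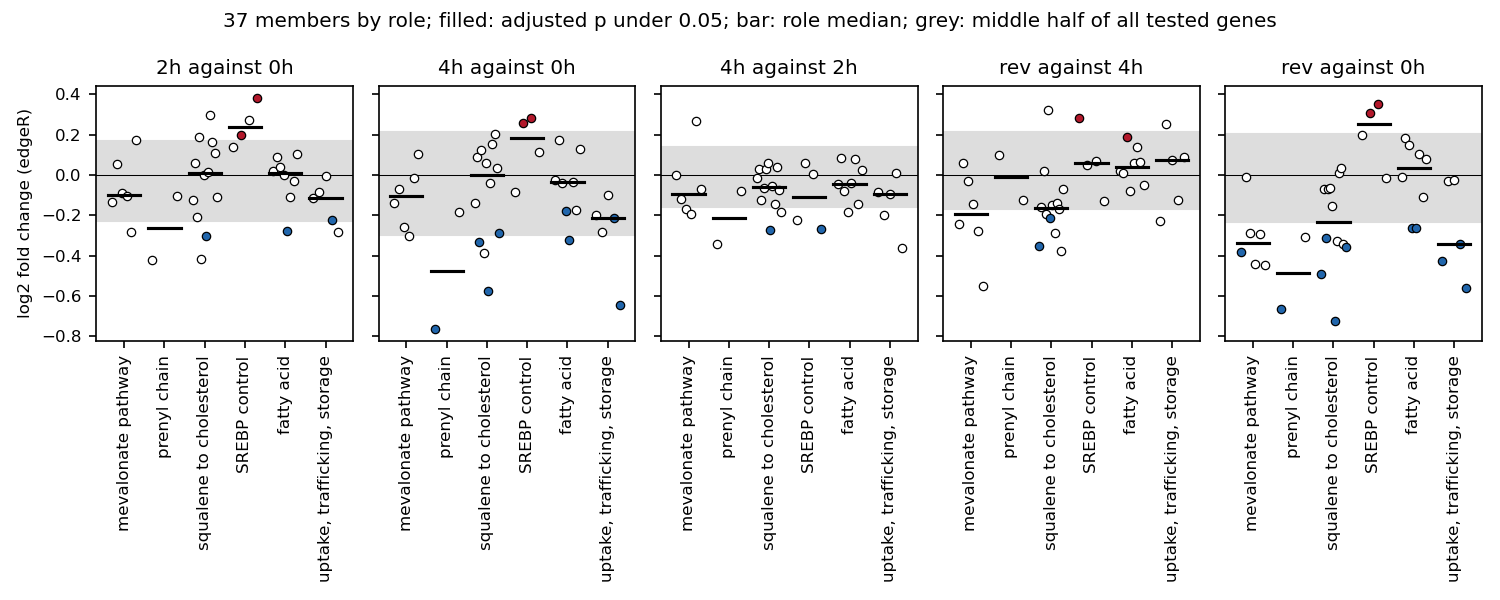
Log2 fold change of each member in the 5 comparisons (points, filled red or blue for higher or lower with adjusted p under 0.05), by role, with the role's median as a bar and the middle 50% of all 12215 tested genes in grey. The rev against 0h panel has all 6 mevalonate genes below 0, and the median of the 4 genes of SREBP control is the highest of the 6 roles in each comparison with 0h.

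Of the 4 genes of SREBP control, Srebf2 and Scap were called higher at 4h and in rev against 0h, Insig1 and Srebf2 higher at 2h, Insig1 lower from 2h to 4h and Srebf1 higher in rev against 4h. Insig1, which retains SCAP in the endoplasmic reticulum, stood at 70.1 and 74.0 CPM in clone 4 and 76.1 and 72.5 CPM in clone 8 at 0h, and at 102 and 99.0 CPM in clone 4 and 92.6 and 90.9 CPM in clone 8 at 2h. At 4h it was at 79.7, 79.1, 85.1 and 72.6 CPM, and in rev at 72.0, 70.2, 68.8 and 82.0 CPM (clone 4 first in each list). Every 2h library was above every library of the other 3 groups. Insig1 rose at 2h by a log2FC of 0.38 (SE 0.07, adjusted p = 9.0e-05), a call kept without any 1 library. It fell from 2h to 4h by 0.27 (SE 0.07, adjusted p = 0.013), and this call was lost without the 2h library of clone 4 replicate 1 (-0.23, adjusted p = 0.092) or the 4h library of clone 8 replicate 2 (-0.23, adjusted p = 0.058). In rev against 0h its log2FC was -0.02.

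Srebf2, which encodes the SREBP of sterol synthesis, stood at 151, 130, 128 and 141 CPM at 0h, 150, 145, 162 and 168 at 2h, 149, 173, 165 and 166 at 4h and 161, 169, 172 and 177 CPM in rev. All rev libraries were above all 0h libraries, and the 2h and 4h groups overlapped with 0h in clone 4. Its log2FC against 0h was 0.20 at 2h (SE 0.07, adjusted p = 0.034), 0.26 at 4h (SE 0.07, adjusted p = 0.0030) and 0.31 in rev (SE 0.07, adjusted p = 9.9e-04). The 4h and rev calls were kept without any 1 library. The 2h call was kept in 10 of 16 refits and lost without any of the 0h libraries other than clone 4 replicate 1 or any of the 2h libraries other than clone 4 replicate 2 (adjusted p up to 0.14), and it was lost with only the 2 groups compared.

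Srebf1, which encodes the SREBP more tied to fatty acid synthesis, was at 62.3, 61.4, 63.0 and 59.5 CPM at 4h and at 72.7, 71.5, 81.4 and 74.4 CPM in rev. These groups did not overlap, and Srebf1 rose in rev against 4h by 0.28 (SE 0.08, adjusted p = 0.0064), a call kept without any 1 library. At 0h it was at 67.1, 57.3, 70.6 and 68.8 CPM and at 2h at 72.8, 64.8, 73.8 and 75.9 CPM, and no comparison with 0h was called. Scap, the escort protein, was at 22.3, 18.4, 14.8 and 17.5 CPM at 0h, 22.9, 22.8, 20.7 and 20.5 at 2h, 19.6, 25.2, 20.5 and 23.2 at 4h and 25.5, 22.8, 19.6 and 25.2 CPM in rev. The 0h library of clone 4 replicate 1 was high and made the 0h group overlap with each of the others. Scap rose in rev against 0h by 0.35 (SE 0.11, adjusted p = 0.022) and at 4h by 0.28 (SE 0.11, adjusted p = 0.047), kept in 12 and 5 of 16 refits (adjusted p up to 0.10 and 0.18). The rev call was lost without the 0h library of clone 4 replicate 2 or clone 8 replicate 1 or the rev library of clone 4 replicate 1 or clone 8 replicate 2. The 4h call was kept only without the 0h or 4h library of clone 4 replicate 1, the 2h library of clone 4 replicate 2 or the rev library of clone 4 replicate 2 or clone 8 replicate 1. Under the 10 other settings the 4h call was lost in 5, with library size alone, no low-count filter, no clone covariate, only the 2 groups compared and DESeq2 (adjusted p up to 0.39), and the rev call in the first 3 of these (adjusted p up to 0.94). An antisense transcript shares 13.2% of the exon length of Scap, and whether strand was used in counting is not given in the sources used here.

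**Figure D3:**
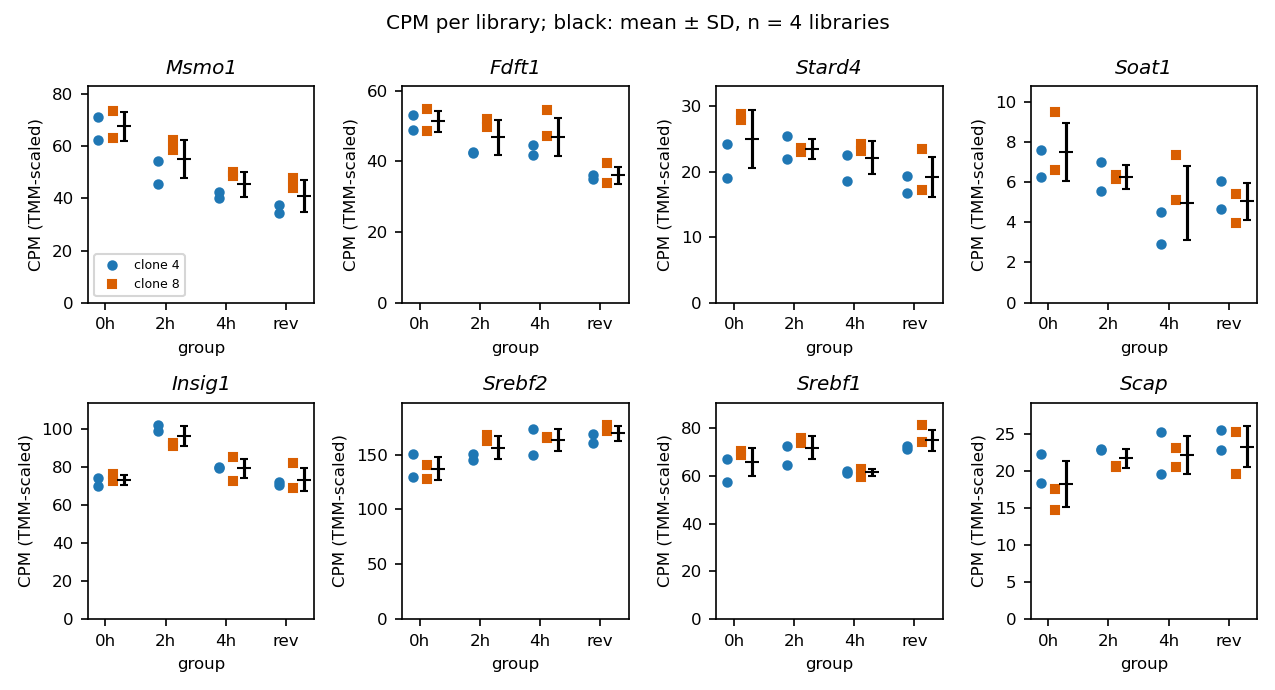
CPM in each library (blue circles, clone 4; orange squares, clone 8) and mean ± SD over 4 libraries (black) for 8 members, by group. Msmo1 goes down from 0h to rev in both clones, Fdft1 is low in rev, and Insig1 is highest at 2h.

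In the mevalonate pathway, no member was called at 2h or 4h. Hmgcs1 was at 122, 130, 108 and 109 CPM at 0h, 120, 135, 115 and 118 at 2h, 112, 107, 113 and 115 at 4h and 120, 120, 110 and 115 CPM in rev. The 4 groups overlapped, and its log2FC lay between -0.12 and 0.06 over the 5 comparisons. For 4h against 0h the 95% interval was -0.20 to 0.07. Acat2, which condenses acetyl-CoA, averaged 26.8 ± 2.27 CPM at 0h and 21.2 ± 2.44 CPM in rev (SD, n = 4 libraries each) and fell by 0.38 in rev against 0h (SE 0.11, adjusted p = 0.0094). That call was lost without the 0h library of clone 4 replicate 2 or the rev library of clone 8 replicate 1 (adjusted p up to 0.067). Acat2 has a close copy beside it, Acat3, and how reads were shared between them was not tested. The largest change without a call in this group was that of Idi1, the isopentenyl diphosphate isomerase, with -0.55 in rev against 4h (SE 0.20, adjusted p = 0.051) from counts of 7 to 90 per library.

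Of the prenyl chain synthases, Fdps was at 5.43, 5.97, 4.18 and 5.67 CPM at 0h, 3.50, 2.63, 4.65 and 4.05 at 2h, 3.41, 3.62, 2.66 and 2.10 at 4h and 3.41, 1.95, 4.81 and 2.25 CPM in rev. The 0h and 4h groups did not overlap. Fdps fell by 0.77 at 4h (SE 0.23, adjusted p = 0.0069), the largest size among all members and comparisons between groups, and the call was kept without any 1 library. It fell by 0.66 in rev against 0h (SE 0.23, adjusted p = 0.032), kept in 11 of 16 refits and lost without the 0h library of replicate 2 of either clone or the rev libraries of clone 4 or of clone 8 replicate 2 (adjusted p up to 0.13), and lost with DESeq2. These values rest on counts of 5 to 57 per library, and 26.7% of its exon length is shared on the same strand with the model Gm43738. Ggps1, which extends the chain to geranylgeranyl diphosphate, had values from -0.31 to -0.08 and was not called.

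Msmo1, the methylsterol monooxygenase that acts after lanosterol, changed most clearly among the sterol genes. It was at 62.5, 71.3, 73.6 and 63.2 CPM at 0h, 45.4, 54.3, 62.3 and 58.7 at 2h, 42.6, 40.3, 48.8 and 50.3 at 4h and 37.5, 34.3, 47.7 and 44.2 CPM in rev. No 2h, 4h or rev library reached the lowest 0h value. Against 0h it fell by 0.30 at 2h (SE 0.08, adjusted p = 0.0048), by 0.58 at 4h (SE 0.08, adjusted p = 2.9e-07) and by 0.72 in rev (SE 0.09, adjusted p = 1.4e-08), where its level was 0.605 times that at 0h. The 4h and rev calls were kept without any 1 library, and the 2h call was lost without the 0h library of clone 4 replicate 2 (-0.23, adjusted p = 0.061). The fall from 2h to 4h was 0.27 (SE 0.08, adjusted p = 0.037), kept in 9 of 16 refits and lost without any 4h library or any 2h library other than clone 4 replicate 1 (adjusted p up to 0.14), and it was lost with the abundant-model covariate and with DESeq2. In rev against 4h the value was -0.15 with no call.

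Fdft1, the squalene synthase, was at 48.9, 53.1, 48.6 and 54.7 CPM at 0h, 42.7, 42.5, 49.8 and 52.1 at 2h, 44.8, 41.8, 47.1 and 54.5 at 4h and 35.0, 36.1, 39.4 and 33.8 CPM in rev. Every rev library was below every library of the other 3 groups. Fdft1 fell by 0.35 in rev against 4h (SE 0.09, adjusted p = 0.0028) and by 0.49 in rev against 0h (SE 0.09, adjusted p = 2.8e-05), and both calls were kept without any 1 library and under each of the 10 other settings. Ctsb, on the opposite strand, overlaps 18.3% of its exon length. The later enzymes Lss, lanosterol synthase, and Dhcr7, the reductase of the last step, fell at 4h by 0.34 (adjusted p = 0.013) and 0.29 (adjusted p = 0.020) and in rev against 0h by 0.31 (adjusted p = 0.035) and 0.36 (adjusted p = 0.0092). Both sets of groups overlapped. The Lss call at 4h was lost without the 0h library of clone 4 replicate 2 or the 4h library of clone 8 replicate 2 (adjusted p up to 0.061), and that in rev was lost without any 0h library other than clone 8 replicate 1 or the rev library of replicate 2 of either clone (adjusted p up to 0.12). The Dhcr7 call in rev was lost without the rev library of clone 8 replicate 1 (adjusted p = 0.053), and that at 4h without either 0h library of clone 4 or the 4h library of clone 4 replicate 1 (adjusted p up to 0.11). The Lss call in rev and the Dhcr7 call at 4h were also lost with the abundant-model covariate.

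Lbr, the lamin B receptor with sterol reductase activity, fell in rev against 4h by 0.21 (SE 0.07, adjusted p = 0.040), from 85.0 ± 7.17 to 74.0 ± 5.25 CPM (SD, n = 4), and lost the call without any 4h library other than clone 8 replicate 2 or the rev library of replicate 1 of either clone (adjusted p up to 0.18). It was also lost with no low-count filter and with the abundant-model covariate. Sqle, the squalene epoxidase often called a control point of the pathway, was at 65.3 to 74.1 CPM at 0h, 66.1 to 75.2 at 2h, 70.5 to 73.5 at 4h and 62.6 to 68.6 CPM in rev. The rev libraries lay below all 4h libraries, with a log2FC of -0.16 and no call (adjusted p = 0.14). Cyp51, Tm7sf2, Nsdhl, Hsd17b7, Ebp and Sc5d were called in no comparison between groups. Their values ran from -0.42 (Tm7sf2, 2h against 0h, adjusted p = 0.057) to 0.32 (Tm7sf2, rev against 4h).

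Among the fatty acid genes, Scd1, which makes monounsaturated fatty acids, was called against 0h at every time, and its level depended on the clone. It was at 168 and 149 CPM in clone 4 and 206 and 220 CPM in clone 8 at 0h, and at 118 and 111 CPM in clone 4 and 175 and 213 CPM in clone 8 at 2h. At 4h the values were 110, 116, 183 and 198 CPM, and in rev 126, 132, 184 and 177 CPM. In clone 4 all 2h, 4h and rev libraries lay below both 0h libraries, and in clone 8 all but the 2h library of replicate 2 did so. Scd1 fell by 0.28 at 2h (SE 0.07, adjusted p = 0.0045), by 0.32 at 4h (SE 0.07, adjusted p = 6.1e-04) and by 0.26 in rev (SE 0.07, adjusted p = 0.0086), with calls kept without any 1 library.

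Its neighbour on chromosome 19, Scd2, with a mean level of 688 to 798 CPM over the groups, was called in none, with values of -0.11 to 0.14. Elovl6, a fatty acid elongase, fell by 0.18 at 4h (adjusted p = 0.038, lost without either 0h library of clone 4 or any 4h library other than clone 8 replicate 2) and by 0.26 in rev against 0h (SE 0.07, adjusted p = 0.0052, kept in 16 of 16). The 4h call was also lost with no low-count filter, only the 2 groups compared and the abundant-model covariate. Fasn averaged 591 ± 32.9 CPM at 4h and 674 ± 55.1 CPM in rev (SD, n = 4), and its rise of 0.19 (SE 0.07, adjusted p = 0.041) was lost in 8 of 16 refits (adjusted p up to 0.19): without the 2h library of replicate 1 of either clone, any 4h library other than clone 4 replicate 2 or any rev library other than clone 4 replicate 1. It was also lost in 6 of the 10 other settings, with RLE, library size alone, no low-count filter, no clone covariate, the abundant-model covariate and DESeq2 (adjusted p up to 0.42). Acly averaged 328 to 338 CPM in the 4 groups, with log2FC values of -0.05 to 0.02 and a 95% interval of -0.15 to 0.09 at 4h against 0h. Acaca, Fads1 and Fads2 were called in no comparison between groups.

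In uptake, trafficking and storage, all 5 members had negative values against 0h at 2h, 4h and in rev. Npc2, which passes cholesterol to NPC1 for its exit from lysosomes, was at 94.0, 90.7, 90.2 and 78.9 CPM at 0h, 67.2, 74.9, 80.9 and 78.5 at 2h, 75.8, 72.7, 82.2 and 72.1 at 4h and 63.9, 71.5, 66.8 and 79.8 CPM in rev. The 0h library of clone 8 replicate 2 was low and made the groups overlap. Npc2 fell by 0.22 at 2h (adjusted p = 0.033), 0.21 at 4h (adjusted p = 0.028) and 0.34 in rev against 0h (SE 0.08, adjusted p = 0.0014). The rev call was kept without any 1 library and the 2h and 4h calls in 12 of 16 refits each (adjusted p up to 0.17 and 0.10). Both were lost without either 0h library of clone 4, the 2h call also without the 0h library of clone 8 replicate 1 or the 2h library of clone 4 replicate 1, and the 4h call without the 4h library of replicate 2 of either clone. Of the 10 other settings 5 ended the 2h call (library size alone, no low-count filter, no clone covariate, only the 2 groups compared and DESeq2, adjusted p up to 0.88). The 4h call was lost in 4, the first 3 of these and the abundant-model covariate (adjusted p up to 0.85). Npc1 itself was not called, at -0.10 to -0.01 against 0h.

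Stard4, a carrier of sterols between membranes, was at 19.0, 24.3, 28.8 and 27.9 CPM at 0h, 25.5, 21.9, 23.7 and 23.0 at 2h, 22.5, 18.6, 24.3 and 23.2 at 4h and 19.3, 16.7, 17.2 and 23.4 CPM in rev. The groups overlapped through the low 0h library of clone 4 replicate 1 and the high rev library of clone 8 replicate 2. Stard4 fell by 0.43 in rev against 0h (SE 0.12, adjusted p = 0.0052), and the call was lost without the rev library of clone 8 replicate 1 (-0.34, adjusted p = 0.060). Soat1 was at 7.60, 6.27, 9.49 and 6.63 CPM at 0h, 5.57, 7.01, 6.34 and 6.18 at 2h, 4.51, 2.92, 5.13 and 7.37 at 4h and 4.69, 6.08, 3.98 and 5.41 CPM in rev. All rev libraries were below all 0h libraries, while at 4h the clone 8 replicate 2 library lay within the 0h range. Soat1 fell by 0.65 at 4h (SE 0.19, adjusted p = 0.0080), lost without the 4h library of clone 4 replicate 2 (-0.46, adjusted p = 0.074), and by 0.56 in rev against 0h (SE 0.20, adjusted p = 0.038), lost without the 0h or rev library of replicate 1 of either clone or the rev library of clone 8 replicate 2 (adjusted p up to 0.24). The rev call was also lost with no low-count filter and with DESeq2. Soat1 rests on counts of 12 to 87. Mylip, a ligase that marks lipoprotein receptors for degradation, was not called, with -0.29 at 4h.

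In clone 8 against clone 4, over all groups, 13 members (35.1%) were called, 11 higher and 2 lower, with a background of 29.3% (15.5% higher, 13.8% lower). The share in both directions together was near that background, while most of the members called were higher. Neither difference was tested. Of the 8 fatty acid genes 7 were called: Acaca, Scd1, Scd2, Fads1 and Fads2 higher and Acly and Elovl6 lower in clone 8. Mvk, Lss, Msmo1, Hsd17b7, Dhcr7 and Mylip were the other higher members. None of the 4 genes of SREBP control was called. Of the 10 pluripotency markers 6 were higher and 2 lower in clone 8 (median 0.32), and of the 5 tested neural and mesodermal markers 1 was higher and 2 lower (median -0.45). Of the 6 ERK target genes 0 were higher and 4 lower (median -0.24), and of the 2 tested fibroblast markers 1 was higher (median 0.31). The part of these lists in the clone differences was not tested. With library size alone, the median of all genes was -0.26 and 17.5% of all genes were called. Among the members only Mylip (0.99), Fads2 (0.44, adjusted p = 0.0497) and Elovl6 (-0.43) were then called. Msmo1, Lss, Acaca and Scd2 turned negative (-0.09 to -0.02), though relative to that median they were at 0.23, 0.24, 0.18 and 0.17.

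The 3 members with the smallest p-values were Scd1, Fads2 and Mylip. Scd1 had 110 to 168 CPM (median 122) in the 8 libraries of clone 4 and 175 to 220 CPM (median 191) in those of clone 8, a log2FC of 0.61 (SE 0.05, adjusted p = 3.3e-13), a call lost with library size alone (0.35, adjusted p = 0.11; 0.61 relative to the shifted median). Fads2, a desaturase of polyunsaturated fatty acids, had 34.6 to 44.0 CPM (median 38.9) and 53.2 to 74.4 CPM (median 62.4), a log2FC of 0.69 (SE 0.07, adjusted p = 3.3e-12). Mylip had 2.53 to 3.80 CPM (median 3.05) and 5.58 to 10.8 CPM (median 7.13), a log2FC of 1.24 (SE 0.15, adjusted p = 3.6e-09). The clones did not overlap in any of these genes. Scd1, Scd2, Fads1 and Fads2 all lie on chromosome 19, where the median clone difference of the 401 tested genes was 0.10 and 28.2% were called. Of the clone calls, that of Mvk was lost without the rev library of clone 8 replicate 1, that of Acaca in 8 of 16 refits (0h replicate 1 of either clone, any 2h library other than clone 8 replicate 1, any rev library other than clone 8 replicate 2) and that of Lss in 5 (any 2h library other than clone 8 replicate 2, clone 8 replicate 1 of 4h or rev), and the other 10 were kept without any 1 library. The Acaca and Acly calls were also lost with no low-count filter, and that of Acaca with DESeq2.

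**Figure D4:**
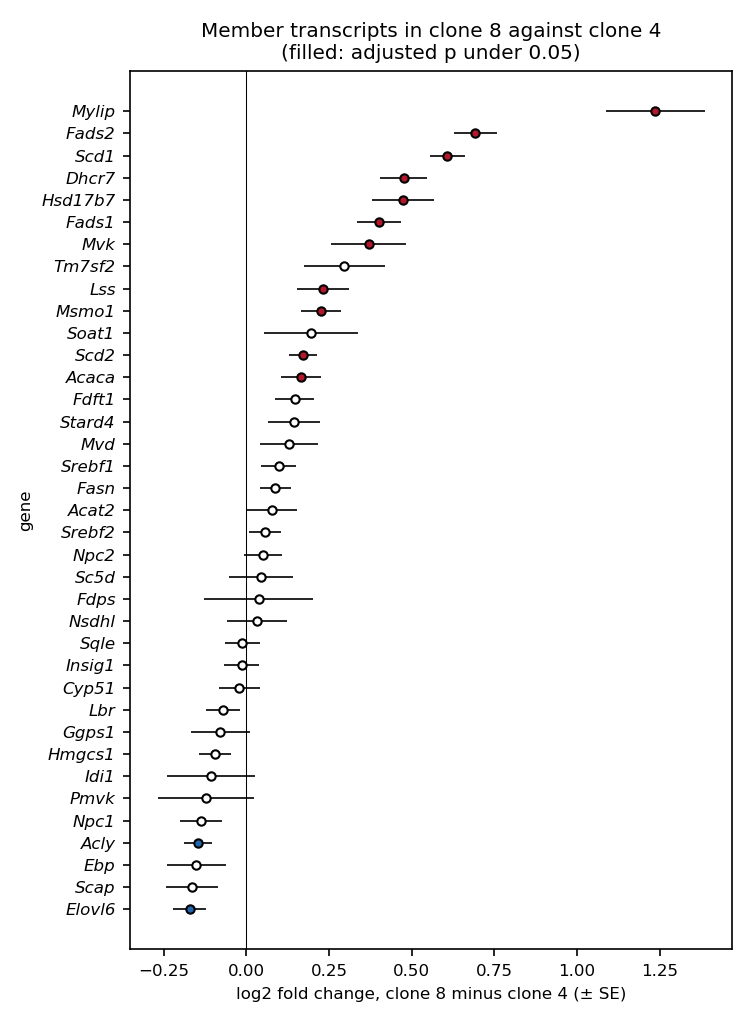
Log2 fold change of clone 8 against clone 4 (± SE of the edgeR fit, 16 libraries) for the 37 members, filled where the adjusted p was under 0.05. Mylip, Fads2 and Scd1 lie furthest to the right, and Elovl6 and Acly are the 2 called members on the left.

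The clones' responses were compared by the interaction term. No member was called in any of the 5 comparisons (edgeR), and at an unadjusted p under 0.05 there were 5 members for the 2h response, 7 for the 4h response, 1 for the step from 2h to 4h, 4 for rev against 4h and 2 for the rev libraries set against 0h. These were 13.5%, 18.9%, 2.70%, 10.8% and 5.41% of the members, beside 10.1%, 11.6%, 4.19%, 5.98% and 9.06% of all tested genes in that order; the differences were not tested. Of all genes, 0.172%, 0.385%, 0.00819%, 0.00819% and 0.0246% were called in that order. The smallest adjusted p among members was 0.081, for Fads1 in 4h against 0h, with -0.47 in clone 4 and 0.11 in clone 8. Elovl6 followed with -0.37 and 0.01 (adjusted p = 0.16) and Dhcr7 with -0.54 and -0.06 (adjusted p = 0.24). A p that misses the threshold does not show that the clones responded alike.

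Lipid genes outside the 37 members were taken from 5 lists, also drawn up with earlier results known. Of their 72 genes 69 were tested. At 2h 1 was higher and 9 lower (14.5%, with 21.4% of all genes called), and at 4h 4 were higher and 16 lower (29.0%, against 34.3%). From 2h to 4h 2 were higher and 5 lower (10.1%, against 7.78%). In rev against 4h 7 were higher and 3 lower (14.5%, against 16.5%), and in rev against 0h 4 were higher and 10 lower (20.3%, against 22.6%). The share of the lists was above that of all genes from 2h to 4h and below it in the other 4 comparisons between groups. In clone 8 against clone 4, 20 were higher and 12 lower (46.4%, against 29.3%). The differences were not tested. The list medians at 4h lay between -0.21 and 0.01. The genes named are up to 4 called genes from each list with the largest size in any comparison between groups, so their size was selected for. In the list of efflux and transport genes, Nceh1, a cholesteryl ester hydrolase, was at 20.2 ± 1.11 CPM at 0h, 11.5 ± 0.33 at 2h, 8.22 ± 1.04 at 4h (SD, n = 4), with 8.44 ± 1.56 in rev. It fell by 0.81 at 2h (adjusted p = 5.0e-07), by 1.28 at 4h (adjusted p = 2.8e-11) and by 1.23 in rev against 0h (adjusted p = 1.1e-09). Abcg1, a sterol exporter, fell by 0.36, 0.83 and 0.86 in the same comparisons. Vldlr, a lipoprotein receptor, fell by 0.71 and 1.30 at 2h and 4h. Its rise of 0.85 in rev against 4h went from a mean of 2.27 to 4.49 CPM, below the uninduced mean of 6.20 CPM. Gramd1a, a sterol carrier, fell at 2h by 0.36 and at 4h by 0.38 and rose by 0.49 in rev against 4h.

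In glycerolipid metabolism, Pnpla3 was at 9.23 ± 0.71 CPM at 0h, 3.33 ± 0.71 at 2h, 3.10 ± 0.92 at 4h, with 8.15 ± 2.78 in rev, and it fell by 1.44 at 2h (adjusted p = 6.7e-09) and rose by 1.35 in rev against 4h (adjusted p = 1.5e-06). Plin2, which coats lipid droplets, fell by 0.40, 0.57 and 0.61 against 0h, Lpin1 by 0.78 at 2h and 0.41 at 4h, and Pcyt2 by 0.58 at 4h. In fatty acid oxidation, Cpt1a, the carnitine transferase that admits fatty acids to mitochondria, fell by 0.68 at 4h (adjusted p = 9.3e-10) and rose by 0.44 in rev against 4h. Cpt2 and Acadvl fell at 4h by 0.54 and 0.59, with 42.9% of the exon length of Acadvl overlapped by the antisense gene Dvl2, and Decr1 fell in rev against 0h by 0.83. Among further fatty acid genes, Elovl7 fell by 0.80, 1.17 and 0.92 against 0h and Acacb by 0.46 at 4h, while Hsd17b12 and Hacd2 rose at 4h by 0.44 and 0.35. Among further sterol control genes, Tmem97 rose by 0.45, 0.51 and 0.53 against 0h, Mbtps1, a protease that cuts SREBP, rose at 4h by 0.17 and in rev against 0h by 0.22, and Faf2 fell at 4h by 0.36.

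**Figure D5:**
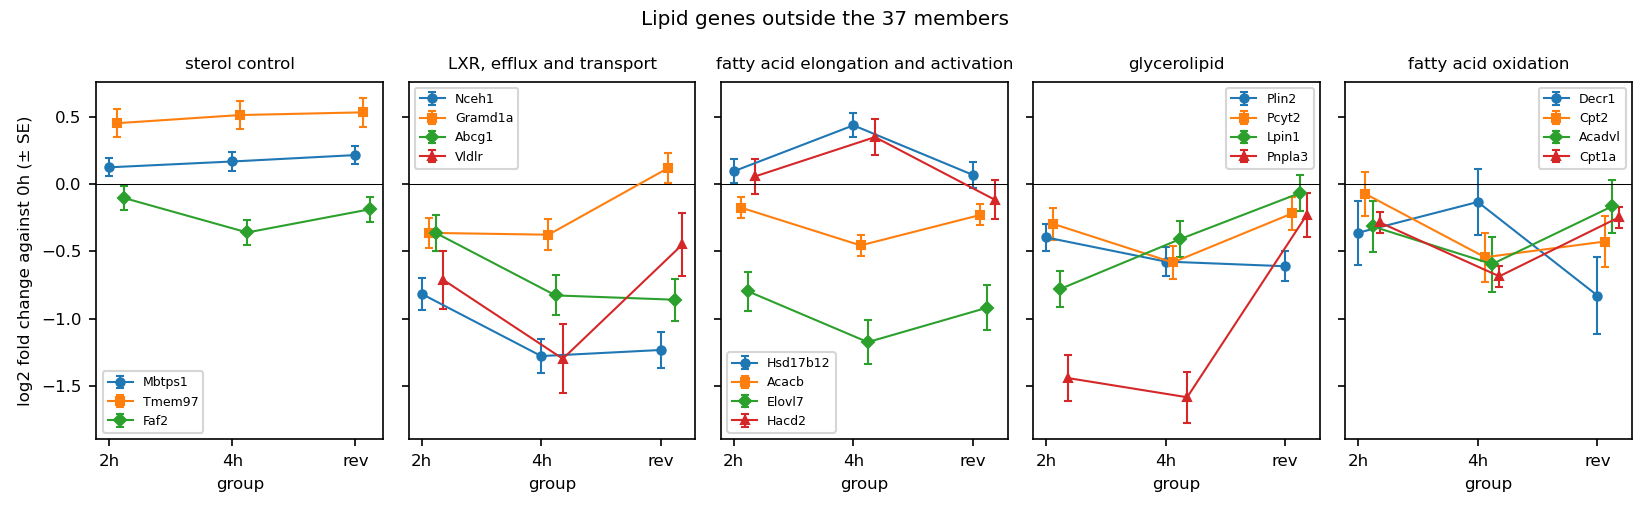
Log2 fold change against 0h (± SE of the edgeR fit) for up to 4 genes from each of 5 lists of lipid genes outside the 37 members. Pnpla3, Vldlr and Cpt1a are lower at 4h than in rev, while Nceh1, Abcg1, Elovl7 and Plin2 stay low in rev.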

How the data were processed

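Sequenced total RNA was depleted of ribosomal RNA, and the authors deposited raw read counts per gene for the 16 libraries, per the labels' protocols. The submitters' processing notes name bcl2fastq 2.19.1, STAR 2.5.3a and the build mm10; the counting tool, annotation and strand setting were not given in the sources used here. Of the 52636 identifiers, 52489 were found in GENCODE M21, which gave symbols, exon lengths and overlaps.

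Counts were filtered with filterByExpr (12215 genes), scaled by TMM (factors 0.463 to 1.47) and fitted in 1 model of group and clone over all 16 libraries (edgeR 4.0.16, robust quasi-likelihood F test, two-sided, R 4.3.3). P-values were Benjamini-Hochberg adjusted over all tested genes at 0.05. The biological coefficient of variation was 0.0795. A second model of group and clone cells gave the interactions. Members and lists were chosen with earlier results of these data known. From the other lists, up to 4 called genes of largest size were named; some list genes are not reported here and were left out of the list counts. The differences between replicates 1 and 2 of a clone were on average not correlated between groups (mean r 0.01, range -0.29 to 0.19), and no block was used. Among the 0h, 2h and 4h groups of clone 8 the correlations were all positive (r of 0.12 to 0.19). None of the 8 pairs of replicates of the same group and clone agreed within sampling noise (chi-square per gene at least 2.97). That value used total counts without TMM and included the most abundant models. It therefore cannot separate a shift in their share from differences in other genes. Pairs across groups or clones were not compared. The steps were tested on simulated data. Alternatives included DESeq2 1.42.0. Intervals and floors cover counting error only where they are stated for counts.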

Additional observations from a re-analysis of the deposited data

Results flagged for a closer look

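Over the 148 sets of 4 libraries (37 members in 4 groups), 2 had 1 library whose gap to the nearest other exceeded Dixon's critical value for 4 samples; chance flags about 1 in 20 groups, which would be 7.4 sets. Lss at 4h stood at 29.2 CPM in clone 8 replicate 1, with the other libraries at 22.2 to 22.8 CPM. Acaca in rev stood at 51.0 CPM in clone 8 replicate 1, with the other libraries at 41.0 to 41.7 CPM.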

How the results depend on the processing

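The 16 left-out libraries and 7 settings were applied to all 47 calls of members, of which 13 were clone calls, and the other 3 settings (replicate block, only the 2 groups compared, no clone covariate) to the 34 calls between groups. Calls were kept in 656 of 752 refits without 1 library, lost in 96 and reversed in 0. DESeq2 kept 40, RLE size factors 46, a filter at a mean of 1 CPM 47, removal of the 8 most abundant models 47, their share as a covariate 40 and no low-count filter 37. The replicate block (clone and replicate number paired) kept 34 of the 34 calls between groups, fits with only the 2 groups compared 30 of 34 and fits with no clone covariate 13 of 34. Scaling by library size alone kept 12 of 47, lost 28 and reversed 7, and its median over all genes was -0.41 in rev against 4h. Reversed were Srebf1 (-0.15) and Fasn (-0.24) in rev against 4h, Srebf2 (-0.023) in rev against 0h and, between clones, Msmo1 (-0.025), Lss (-0.018), Acaca (-0.082) and Scd2 (-0.092).

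Counts of members (higher, then lower; both together between clones) that moved by more than 1.5 times were as follows. With library size alone they were 0 and 0 at 2h, 0 and 0 at 4h, 0 lower from 2h to 4h, 0 and 8 in rev against 4h, 0 and 7 in rev against 0h, and 3 between clones. With TMM 21.4%, 34.3%, 7.78%, 16.5%, 22.6% and 29.3% of all genes were called in these comparisons. Under library size alone the shares were 2.74%, 7.21%, 0.802%, 14.6%, 8.19% and 17.5% in that order. The median log2FC of the members was then 0.024 for 4h against 0h, 0.047 for 4h against 2h, -0.49 for rev against 4h and -0.49 when rev was compared to 0h. With no clone covariate they were 1 and 0 at 2h, 1 and 3 at 4h, 0 lower from 2h to 4h, 1 and 1 in rev against 4h and 1 and 5 for rev against 0h. Of all genes 10.1%, 22.7%, 1.89%, 7.34% and 11.8% were then called, in that order. With no low-count filter there were 1 higher at 4h, 1 and 1 in rev against 4h and 1 higher for rev against 0h. Of the 31361 genes in that fit 12.4%, 5.82% and 7.18% were called in these comparisons. With only the 2 groups compared there was 1 higher at 2h and 1 at 4h, with 19.7% and 32.0% of all genes in those fits called. With RLE there was 1 higher in rev against 4h, with the abundant-model covariate 1 and 1, and with DESeq2 1 higher there and 1 at 4h. Of all genes these settings called 16.6%, 10.4% and 13.6% in rev against 4h, and DESeq2 called 29.8% at 4h. Without 1 library, the higher members ranged from 1 to 3 at 2h, 1 to 2 at 4h, 0 to 1 from 2h to 4h, 1 to 2 in rev against 4h and 1 to 4 for rev against 0h. The lower members ranged from 1 to 5, 4 to 9, 1 to 3, 1 to 4 and 7 to 11 in the same order, and the median in rev against 4h from -0.12 (without the 4h library of clone 4 replicate 1) to -0.04. Of all genes 15.2% to 21.6%, 28.7% to 34.2%, 4.72% to 8.35%, 11.4% to 17.6% and 17.2% to 22.8% were called in these refits, in the same order. The cause of these shifts was not tested, beyond the fewer libraries in a refit. Depth limits Fdps, Idi1, Mylip and Tm7sf2, with 5 to 9 counts in their poorest library.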
